A study of Mus musculus with 6 samples.

Results

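The genes described here are 32 components of the unfolded protein response and the integrated stress response, measured by RNA sequencing of the mouse cochlea on postnatal day 3. They were chosen by name: 14 chaperones and folding factors of the endoplasmic reticulum (ER), 6 stress sensors and transcription factors, 5 genes of ER-associated degradation, and 7 targets of the transcription factor Atf4. All 32 symbols matched an Ensembl gene among the 55769 features of the libraries, and all 32 were among the 17097 features that reached 1 TPM in at least 3 libraries. TPM counts transcripts after correction for their length, on a fixed total per library. Of the 6 libraries, 3 came from Plscr5-/- mice (Plscr5 knockout) and 3 from wild-type mice. Plscr5 belongs to the phospholipid scramblase family. All libraries were made from total RNA of cochlear tissue, with no treatment named. The labels do not give the strain, the altered part of Plscr5, or whether each library came from a separate animal or a pool. Their extraction text speaks of mice with a Pou4f3 deletion allele, which no library lists as its genotype. P-values therefore measure the spread between these libraries only, and that spread may be technical.

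Proteins that enter the ER fold with the help of chaperones, and misfolded chains are sent back to the cytosol for degradation. When unfolded protein accumulates, the membrane sensors Ire1 (Ern1), Perk (Eif2ak3) and Atf6 are activated, in part by release from the chaperone BiP (Hspa5), and raise folding and degradation capacity through Xbp1 and cleaved Atf6. Perk also phosphorylates the translation factor eIF2, as do kinases that sense amino acid shortage or viral RNA, and the resulting translation of Atf4 mRNA drives genes of amino acid supply and feedback. Chaperone targets and Atf4 targets thus read out different arms of the same network. In the mouse inner ear, loss of Manf is known to lead to hair cell loss and hearing loss.

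The libraries correlated with each other at Pearson r between 0.9635 and 0.9852 over features. Plscr5 itself was at 4.30, 3.69 and 5.01 TPM in the knockout libraries, against 14.53, 12.42 and 9.27 TPM in the wild-type libraries. For Plscr5 the groups did not overlap, and its adjusted p was 0.29 (limma, Benjamini-Hochberg adjustment over all tested features). In that fit 2 of 17097 features passed the threshold of 0.05, which is 0.0117%, both lower in the knockout, and neither is a stress response gene. All 10 hair cell markers passed the filter and were detected at a summed 848.6, 835.9 and 849.5 TPM in the knockout libraries, against 837.3, 866.4 and 836.1 TPM in the wild-type libraries. Wild-type library 3 stood apart in nerve markers, where the 10 Schwann cell markers summed to 2320, 1563 and 1502 TPM in the knockout libraries, against 1385, 1485 and 524.4 TPM in the wild-type libraries. In bulk tissue, fewer cells of a type and less RNA per cell cannot be told apart.

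Different response elements are known for the 2 target classes, and matches to them in the promoters are shown here. Whether they bear on the values below was not tested. RefSeq promoter sequences (mouse build GRCm38.p6, 250 bases before to 50 bases after the start site) were at hand for 28 of the 32 genes, all but Manf, Hyou1, Atf6 and Derl1. The ER stress element, bound by Atf6 with its partner NF-Y, was searched on both strands as CCAAT, 9 bases of any kind, then CCACG. Each match is listed with its position counted from the start site (-1 is the base before it), and capitals mark the fixed letters at either end.
Hspa5 (chr2:34772025-34772043, -65 to -47, its own strand): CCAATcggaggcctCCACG
Hsp90b1 (chr10:86705638-86705656, -212 to -194, its own strand): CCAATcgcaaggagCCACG
Hsp90b1 (chr10:86705533-86705551, -107 to -89, the opposite strand): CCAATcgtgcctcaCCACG
Calr (chr8:84847075-84847093, -162 to -144, the opposite strand): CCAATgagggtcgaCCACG
Canx (chr11:50325800-50325818, -145 to -127, its own strand): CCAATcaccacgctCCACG
Pdia6 (chr12:17266491-17266509, -98 to -80, its own strand): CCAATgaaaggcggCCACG
Dnajc3 (chr14:118937827-118937845, -105 to -87, its own strand): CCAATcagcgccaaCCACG
Creld2 (chr15:88819520-88819538, -126 to -108, the opposite strand): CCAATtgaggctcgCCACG
Syvn1 (chr19:6046532-6046550, -44 to -26, its own strand): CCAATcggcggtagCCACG
Matches were present in the promoters of 7 of 12 chaperone genes (58.3%), 1 of 4 degradation genes (25.0%), 0 of 5 sensors and factors and 0 of 7 Atf4 targets, against 39 of 32851 RefSeq promoters in all (0.119%). Members were counted by gene and the total by promoter. The element was already known for chaperone targets, so its higher share among them is no finding of these data.

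The C/EBP-ATF response element, bound by Atf4 with its partners, was searched on both strands as TGATGNAAN. Its matches are given in capitals throughout, since every letter belongs to the motif.
Herpud1 (chr8:94386316-94386324, -113 to -105, the opposite strand): TGATGCAAC
Trib3 (chr2:152344039-152344047, 13 to 21, the opposite strand): TGATGTAAA
Asns (chr6:7693224-7693232, -23 to -15, its own strand): TGATGAAAC
Chac1 (chr2:119351048-119351056, -194 to -186, the opposite strand): TGATGCAAC
This element was present in the promoters of 3 of 7 Atf4 targets (42.9%), 1 of 4 degradation genes (25.0%), 0 of 12 chaperones and 0 of 5 sensors and factors, against 1299 of all 32851 promoters (3.95%). It too was already known for its class of targets, and the same limits hold. The Xbp1-type element TGACGTGG, searched on both strands, was in no promoter of the 28 genes and in 222 of all promoters (0.676%). Its reverse complement begins with the CCACG of the ER stress element, so matches of the 2 can share letters. A match is a string of letters and no proof of a binding site, and an absent match says only that those letters are not in this window.

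As a chaperone example and an Atf4 target example, the 250 bases before the start sites of Hspa5 and Chac1 are printed with the element in capitals, on the strand of the gene. The Chac1 element is read on the opposite strand, so its capitals are the reverse complement of the letters above.
Hspa5: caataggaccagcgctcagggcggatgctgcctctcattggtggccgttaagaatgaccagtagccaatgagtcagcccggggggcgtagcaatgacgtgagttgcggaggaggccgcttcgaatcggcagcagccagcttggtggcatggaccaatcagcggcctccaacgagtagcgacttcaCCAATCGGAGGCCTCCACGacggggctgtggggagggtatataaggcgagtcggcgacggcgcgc
Chac1: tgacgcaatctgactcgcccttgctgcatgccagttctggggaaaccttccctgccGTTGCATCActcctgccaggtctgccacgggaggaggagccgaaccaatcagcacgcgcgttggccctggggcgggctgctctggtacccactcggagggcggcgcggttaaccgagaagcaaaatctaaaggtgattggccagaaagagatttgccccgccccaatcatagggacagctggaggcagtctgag

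None of the 32 genes passed the threshold of 0.05 in limma after Benjamini-Hochberg adjustment, with adjusted p between 0.989 and 0.998, beside 0.0117% of all tested features. At an unadjusted p under 0.05, limma counted 1 of the 32 as lower in the knockout, beside 1.85% of all tested features, and 0 as higher, beside 2.15%. Counted by overlap, 0 of the 32 had every knockout library below every wild-type library, beside 4.74% of all tested features, and 3 (Atf4, Chac1 and Ppp1r15a) had every knockout library above, beside 4.6%. An exact two-sided permutation test of 3 against 3 libraries cannot go below p = 0.1. Over the 32 genes, 26 log2 fold changes were negative and 6 positive with a median of -0.16, beside 9128 negative and 7969 positive with a median of -0.01 over all tested features.

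All 14 chaperone and folding genes had a log2 fold change below 0 between knockout and wild type, with a median of -0.25 and a range from -0.44 to -0.13, and none passed limma after adjustment or at an unadjusted p under 0.05. The levels differed more between libraries of a genotype than between the genotypes. Summed over the 14 genes, the chaperones made up 8985, 5746 and 5572 TPM in the knockout libraries, against 9506, 7711 and 6290 TPM in the wild-type libraries. Knockout library 1 and wild-type library 1 were the highest of their genotype, and the groups overlapped. Knockout library 1 was the highest knockout library for 14 of 14 genes, wild-type library 1 was the highest wild-type library for 14 of 14, and wild-type library 3 was the lowest wild-type library for 14 of 14. Of all 17097 tested features, these held singly for 8886, 6585 and 6560. Both libraries numbered 1 were highest in their genotype for 24.4% of all tested features, and for 25.6% of the 7672 tested features with a mean of at least 20 TPM. For 11 of the 14 genes (78.6%) each knockout library was below the wild-type library of the same number, beside 16.9% of all tested features. The reverse held for 0 of the 14. Whether the numbers pair the libraries is not stated by the labels.

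The 2 lowest fold changes of this class belonged to Sdf2l1, a partner of the ER cochaperone Dnajb11, and Creld2, a soluble ER protein with thiol-exchange motifs. Sdf2l1 was at 164.20, 61.79 and 61.57 TPM in the knockout libraries, against 168.26, 127.91 and 72.70 TPM in the wild-type libraries. Its log2 fold change was -0.44 (SE 0.52, 95% confidence interval -1.75 to 0.88). Knockout library 1 stood at about the level of wild-type library 1, and the other knockout libraries stood below all wild-type libraries. Creld2 had 185.22, 83.12 and 76.89 TPM in the knockout libraries, against 205.45, 154.84 and 88.69 TPM in the wild-type libraries, a log2 fold change of -0.41 (SE 0.47, 95% interval -1.62 to 0.79). The same knockout library was high, and the groups overlapped.

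The fold changes nearest to 0 were those of the lectin chaperones Canx and Calr, which hold glycoproteins during folding. Canx had 487.38, 375.13 and 364.27 TPM in the knockout libraries, against 502.25, 446.71 and 388.61 TPM in the wild-type libraries (log2 fold change -0.13, SE 0.13, 95% interval -0.44 to 0.18). Calr was at 1945.73, 1269.18 and 1272.04 TPM in the knockout libraries, against 1848.44, 1644.80 and 1400.20 TPM in the wild-type libraries (log2 fold change -0.15, SE 0.19, 95% interval -0.62 to 0.33). For Calr, knockout library 1 was the highest of all 6 libraries and the other knockout libraries were the lowest.

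Hspa5, which encodes the Hsp70 chaperone BiP, had 1140.20, 644.35 and 584.67 TPM in the knockout libraries, against 1287.58, 915.12 and 646.85 TPM in the wild-type libraries. Its means were 789.7 ± 305.0 TPM in the knockout and 949.8 ± 321.8 TPM in wild type (SD, n = 3 each), so the difference of means was smaller than either SD. Its ER Hsp90 counterpart Hsp90b1 averaged 870.1 ± 309.5 TPM in the knockout and 1018.9 ± 271.1 TPM in wild type. The nucleotide exchange factor Hyou1, which recharges BiP, averaged 120.2 ± 48.9 TPM in the knockout and 139.8 ± 33.1 TPM in wild type. These BiP-system genes had log2 fold changes of -0.28 for Hspa5, -0.25 for Hsp90b1 and -0.26 for Hyou1. Manf, a secreted factor that binds BiP, averaged 494.5 ± 200.1 TPM in the knockout and 638.4 ± 203.2 TPM in wild type, with a log2 fold change of -0.39. The J-domain cochaperones Dnajb9, Dnajb11 and Dnajc3 had log2 fold changes of -0.25, -0.16 and -0.37. Dnajb9 was the least abundant chaperone, with 29.6 ± 9.18 TPM in the knockout and 36.4 ± 15.4 TPM in wild type. The disulfide isomerases Pdia3, Pdia4 and Pdia6 had log2 fold changes of -0.21, -0.25 and -0.19, and Pdia3 averaged 995.9 ± 186.1 TPM in the knockout and 1141.6 ± 139.5 TPM in wild type. For each chaperone named with a mean and SD, the difference of means was smaller than the larger SD.

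**Figure D1:**
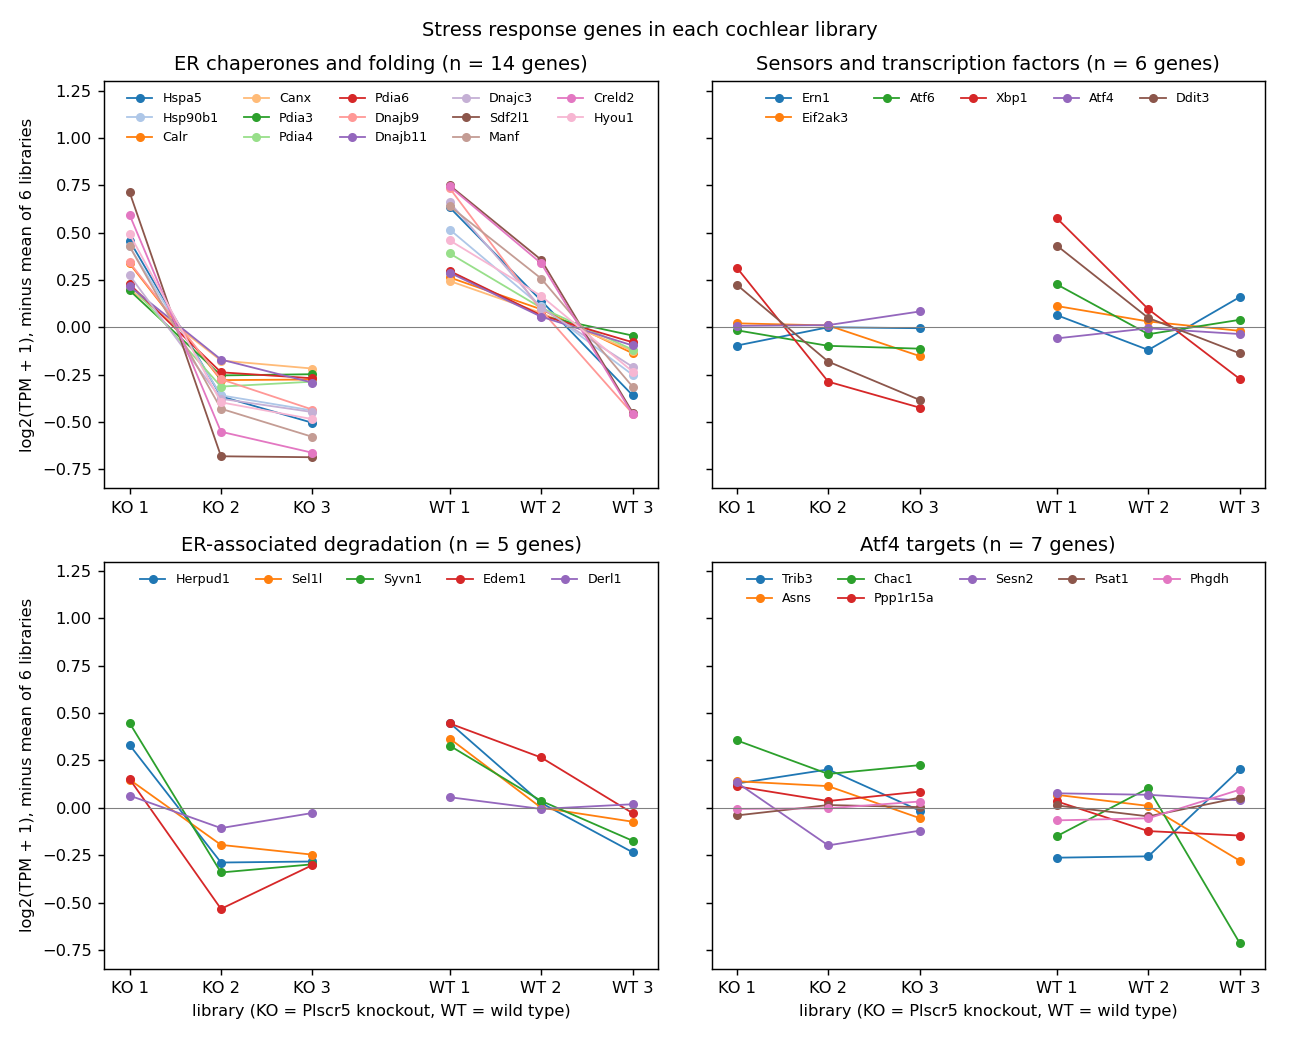
Each point is a gene in a library, as log2(TPM + 1) minus that gene's mean over the 6 libraries, in 4 panels by role, with the 3 knockout libraries left of the 3 wild-type libraries; lines join the points of a gene within a genotype and carry no order. In the chaperone panel all 14 genes are above their mean in both libraries numbered 1 and below it in knockout libraries 2 and 3 and wild-type library 3, while the libraries numbered 1 are both highest for 3 of the 7 Atf4 targets.

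The 3 membrane sensors were at similar mean levels, below those of every chaperone, and varied little between libraries. Ern1, whose product splices Xbp1 mRNA, had 15.30, 16.43 and 16.37 TPM in the knockout libraries, against 17.22, 15.04 and 18.47 TPM in the wild-type libraries. Eif2ak3, the eIF2 kinase, had 19.64, 19.48 and 17.31 TPM in the knockout libraries, against 20.99, 19.78 and 19.08 TPM in the wild-type libraries. Atf6, the factor released by cleavage in the Golgi, had 18.48, 17.40 and 17.21 TPM in the knockout libraries, against 22.04, 18.20 and 19.24 TPM in the wild-type libraries. For each sensor the groups overlapped, and the log2 fold changes were -0.07 (SE 0.11) for Ern1, -0.08 (SE 0.096) for Eif2ak3 and -0.15 (SE 0.10) for Atf6. Knockout library 1 and wild-type library 1 did not stand out for Ern1, and for Eif2ak3 they exceeded the next library of their genotype by little. For Atf6 they were also the highest, at 1.07-fold the mean of the others in the knockout and 1.18-fold in wild type. Both libraries numbered 1 were the highest for 4 of the 6 sensors and factors (66.7%), beside 24.4% of all tested features.

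Among the transcription factors, Xbp1 and Ddit3 followed the chaperones across libraries and Atf4 did not. Xbp1 had 162.51, 106.67 and 96.90 TPM in the knockout libraries, against 194.86, 139.38 and 107.73 TPM in the wild-type libraries, a log2 fold change of -0.26 (SE 0.28, 95% interval -0.94 to 0.41). Spliced and unspliced Xbp1 mRNA are not separated in these values. Ddit3, which encodes Chop, had 45.90, 34.39 and 29.76 TPM in the knockout libraries, against 53.11, 40.52 and 35.48 TPM in the wild-type libraries, a log2 fold change of -0.23 (SE 0.19). For both genes the library numbered 1 was the highest in each genotype and the groups overlapped. Ddit3 was counted with the factors and not among the Atf4 targets, and other assignments were not tested. By the annotation the Ddit3 locus overlaps Mars1, so its level is uncertain where reads could be shared.

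Atf4 mRNA had the lowest within-genotype SD of the 32 genes when pooled over both genotypes, though not in each genotype alone. It stood at 146.34, 146.73 and 154.30 TPM in the knockout libraries, against 139.74, 145.02 and 141.99 TPM in the wild-type libraries. Its lowest knockout library was above the highest wild-type library, by little. The means were 149.1 ± 4.49 TPM in the knockout and 142.2 ± 2.65 TPM in wild type, with a log2 fold change of 0.07 (SE 0.059, 95% interval -0.07 to 0.20) and an adjusted p of 0.989 in limma. The Atf4 protein is controlled largely by translation, which these data do not measure.

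All 5 genes of ER-associated degradation had negative log2 fold changes, from -0.46 to -0.05 with a median of -0.16, and none passed the adjusted threshold. Edem1, a mannosidase-like protein that directs glycoproteins to degradation, was the gene with an unadjusted p under 0.05. It had 21.01, 12.68 and 15.06 TPM in the knockout libraries, against 25.97, 22.81 and 18.42 TPM in the wild-type libraries. Knockout libraries 2 and 3 were below every wild-type library, and knockout library 1 was above wild-type library 3. The log2 fold change of Edem1 was -0.46 (SE 0.19, 95% interval -0.90 to -0.01), with an unadjusted p of 0.0468 and a Benjamini-Hochberg adjusted p of 0.989 in limma. The ubiquitin ligase Syvn1 (Hrd1) averaged 44.4 ± 14.9 TPM in the knockout and 47.5 ± 8.55 TPM in wild type, and its adaptor Sel1l averaged 60.9 ± 9.59 TPM in the knockout and 70.0 ± 12.0 TPM in wild type. Herpud1, a scaffold of the same ligase complex, averaged 64.3 ± 17.1 TPM in the knockout and 71.8 ± 17.7 TPM in wild type. Derl1, a membrane subunit of the retrotranslocation machinery, was steady, with 59.8 ± 3.63 TPM in the knockout and 61.7 ± 1.36 TPM in wild type. For all 5 genes the libraries numbered 1 were the highest in both genotypes, beside 24.4% of all tested features.

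Of the 7 Atf4 targets, 5 had a positive log2 fold change and 2 a negative one (median 0.13), within a range from -0.12 to 0.51, and none passed limma after adjustment or at an unadjusted p under 0.05. Chac1, an enzyme that degrades glutathione, had the highest fold change of the 32 genes from a low level. It was at 2.11, 1.75 and 1.84 TPM in the knockout libraries, against 1.19, 1.61 and 0.48 TPM in the wild-type libraries. Knockout and wild type did not overlap, and wild-type library 3 was the lowest. The log2 fold change on the log2(TPM + 1) scale, which understates changes of low genes, was 0.51 (SE 0.24, 95% interval -0.05 to 1.07), with an unadjusted p of 0.0705 and an adjusted p of 0.989 in limma.

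Ppp1r15a, the phosphatase subunit that reverses eIF2 phosphorylation, had 30.40, 28.75 and 29.79 TPM in the knockout libraries, against 28.71, 25.65 and 25.22 TPM in the wild-type libraries. Its groups were separated only by the step between knockout library 2 and wild-type library 1, and the log2 fold change was 0.16 (SE 0.088, 95% interval -0.05 to 0.36). Trib3, a pseudokinase that feeds back on Atf4, had 1.65, 1.79 and 1.40 TPM in the knockout libraries, against 1.02, 1.03 and 1.79 TPM in the wild-type libraries, a log2 fold change of 0.21 (SE 0.21). Wild-type library 3 was as high as any knockout library for Trib3, and the groups overlapped. Asns, asparagine synthetase, averaged 23.1 ± 1.73 TPM in the knockout and 21.1 ± 2.75 TPM in wild type, with a log2 fold change of 0.13.

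The remaining Atf4 targets were close to 0 or below. Sesn2, a leucine sensor of the sestrin family, had 8.77, 6.76 and 7.19 TPM in the knockout libraries, against 8.39, 8.34 and 8.15 TPM in the wild-type libraries, a log2 fold change of -0.12 (SE 0.13). Psat1, an enzyme of serine synthesis, had 109.91, 114.21 and 113.34 TPM in the knockout libraries, against 114.03, 109.53 and 117.42 TPM in the wild-type libraries, a log2 fold change of -0.01 (SE 0.063, 95% interval -0.16 to 0.13). The groups overlapped for both. Phgdh, which catalyses the entry step of serine synthesis, averaged 163.6 ± 2.48 TPM in the knockout and 161.9 ± 10.4 TPM in wild type. Summed over the 7 genes, the Atf4 targets made up 339.1, 339.5 and 341.1 TPM in the knockout libraries, against 331.7, 324.8 and 344.9 TPM in the wild-type libraries, a sum carried mostly by Phgdh and Psat1. Both libraries numbered 1 were the highest of their genotype for 3 of the 7 (42.9%), Asns among them, beside 24.4% of all tested features.

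**Figure D2:**
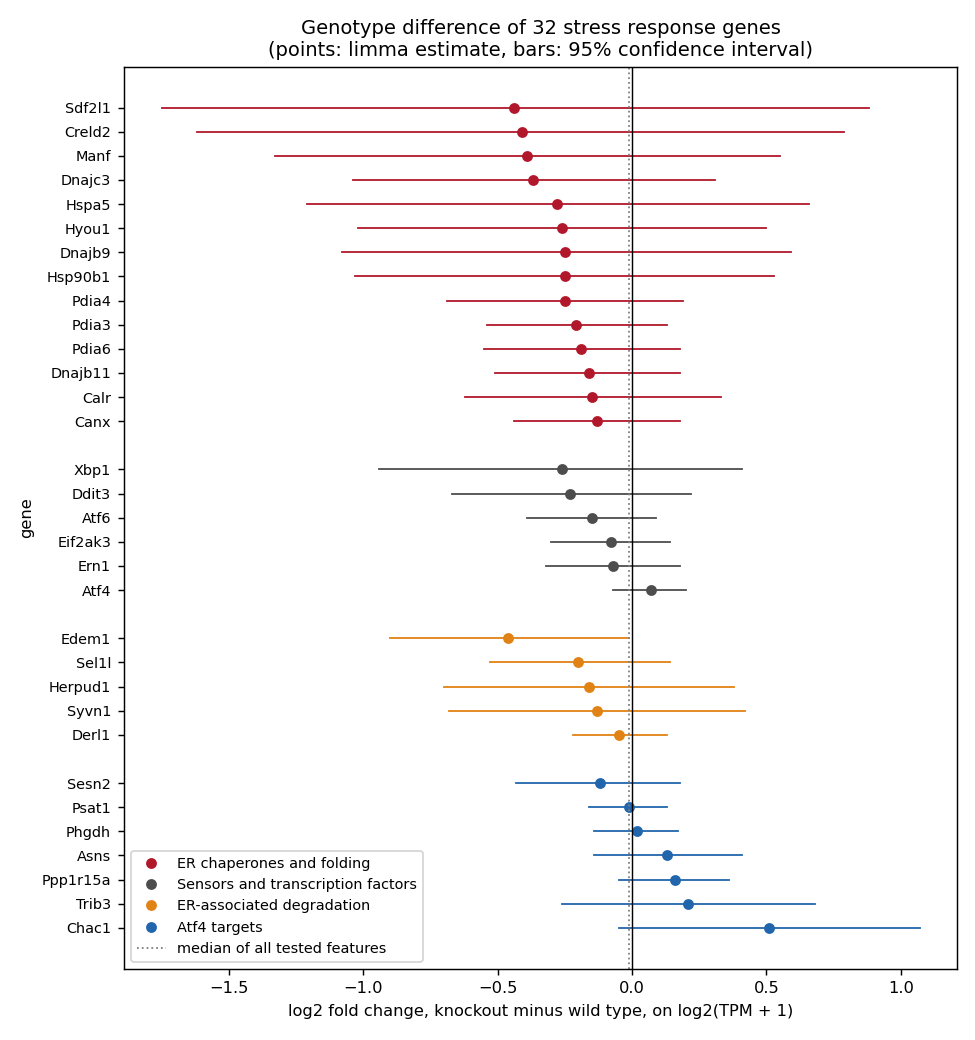
Log2 fold change of each of the 32 genes (knockout less wild type, values as log2(TPM + 1)), with 95% confidence intervals from limma, ordered by role. All 14 chaperones lie left of 0 and all their intervals cross it; the interval of Edem1 alone stays below 0, ending at -0.01, before any adjustment.

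The chaperones and the Atf4 targets differed in the sign of their median, -0.25 for the chaperones and 0.13 for the Atf4 targets, a difference of -0.38. With a filter of 5 TPM, which drops Trib3 and Chac1, the Atf4 target median was 0.02 and the difference -0.27. This is a description of lists with no test, and it leaves out Ddit3 (log2 fold change -0.23), which was counted with the factors. In each library the mean deviation of the chaperones from their 6-library means, less that of the Atf4 targets, was 0.25, -0.40 and -0.44 in the knockout libraries, against 0.53, 0.19 and -0.13 in the wild-type libraries. Knockout libraries 2 and 3 were below all wild-type libraries, knockout library 1 was above wild-type libraries 2 and 3, and the groups overlapped. The chaperone part of this quantity was 0.37, -0.35 and -0.42 in the knockout libraries, against 0.49, 0.14 and -0.24 in the wild-type libraries. Its range within a genotype was 0.78 in the knockout and 0.73 in wild type, each larger than the genotype difference of -0.27 in size. The Atf4 target part was 0.12, 0.05 and 0.02 in the knockout libraries, against -0.04, -0.04 and -0.11 in the wild-type libraries. The Atf4 target values did not overlap between genotypes, but the choice of genes was made with earlier results of these libraries known. No single target passed the test. The separation rests on Trib3 and Chac1, which the filter of 5 TPM drops. On the mean of the other targets, wild-type library 1 was above knockout libraries 2 and 3. Gene by gene, 2 of the 7 targets had groups that did not overlap, and the summed TPM of the 7 overlapped.

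The chaperone median depended on single libraries. It was -0.50 without knockout library 1, -0.14 without knockout library 2, -0.10 without knockout library 3, -0.09 without wild-type library 1, -0.26 without wild-type library 2 and -0.44 without wild-type library 3. Without wild-type library 1, 13 of 14 chaperones kept a negative sign. With knockout library 1 left out, limma counted 9 of the 32 genes as lower at an unadjusted p under 0.05, beside 6.0% of all tested features in either direction, and none after adjustment. The Atf4 target median was 0.07 without wild-type library 3 and 0.10 or more without any other single library.

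The spread between libraries of a genotype differed between the roles, given here as a description with no test. The within-genotype SD on the log2(TPM + 1) scale, pooled over both genotypes, had a median of 0.427 over the chaperones (range 0.209 to 0.716) and 0.124 over the Atf4 targets (range 0.041 to 0.303), beside 0.158 over all tested features and 0.118 over those with a mean of at least 20 TPM. All 14 chaperones exceeded the median of all tested features and 10 were above the 75th percentile. Of the Atf4 targets, 2 exceeded the median and 1 was above the 75th percentile. The degradation genes had a median of 0.299 and the sensors and factors one of 0.105, with Xbp1 at 0.410 and Atf4 at 0.036. Sdf2l1 ranked at the 97.4th percentile of all tested features, Creld2 at 96.7, Hspa5 at 94.0, Psat1 at 1.79 and Atf4 at 1.12.

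The same held in each genotype on its own. The highest library over the lowest was 1.70-fold in the knockout and 1.66-fold in wild type at the median of the chaperones, beside 1.22-fold in the knockout and 1.25-fold in wild type over all tested features. For Sdf2l1 it was 2.67-fold in the knockout and 2.31-fold in wild type, for Creld2 2.41-fold in the knockout and 2.32-fold in wild type, and for Canx 1.34-fold in the knockout and 1.29-fold in wild type. Atf4 spanned 1.05-fold in the knockout and 1.04-fold in wild type. Sdf2l1 and Creld2 thus had a wide span in both genotypes and Atf4 a narrow one, while Chac1 spanned 1.21-fold in the knockout and 3.35-fold in wild type.

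**Figure D3:**
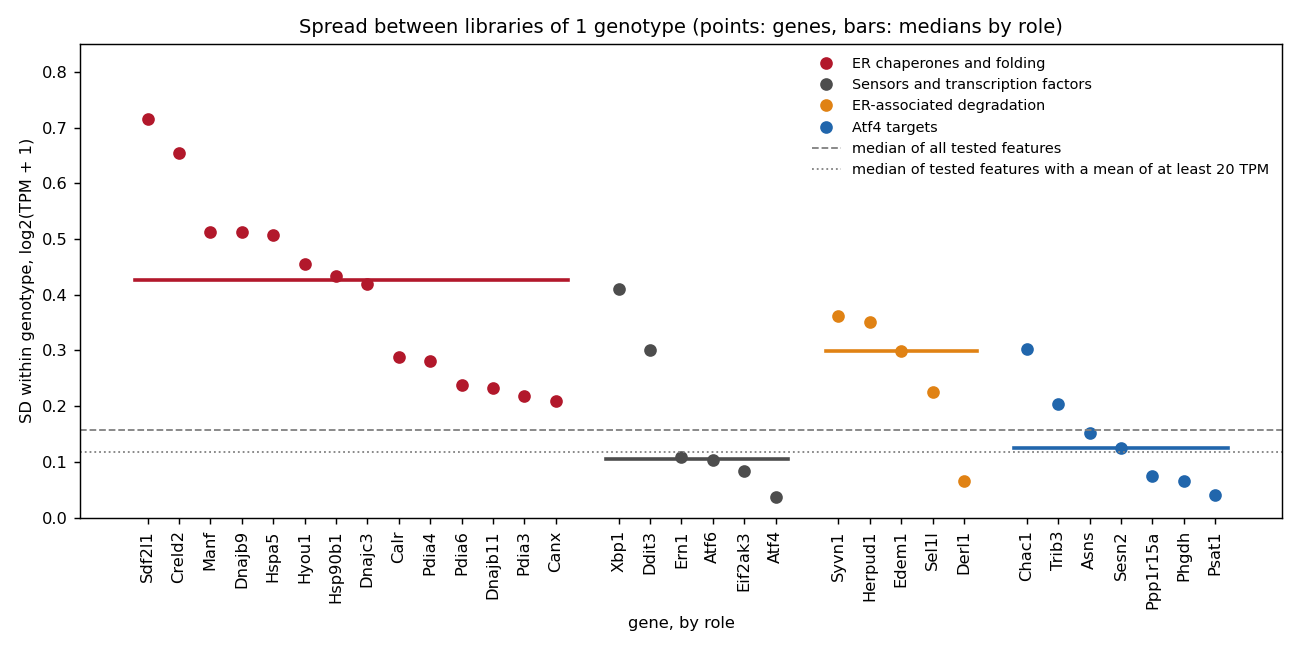
Pooled within-genotype SD of log2(TPM + 1) for each of the 32 genes, ordered within role, with a bar at each role's median and grey lines at the medians of all tested features (0.158) and of those with a mean of at least 20 TPM (0.118). The chaperones lie between 0.209 and 0.716, all above both lines, while Atf4, the sensors Ern1, Eif2ak3 and Atf6, Derl1, Ppp1r15a, Phgdh and Psat1 are below both.

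Knockout library 1 stood at 1.63-fold the mean of the other knockout libraries at the median of the chaperones (range 1.32 to 2.66), and wild-type library 1 at 1.44-fold the mean of the other wild-type libraries (range 1.20 to 1.89). Sdf2l1 had the highest ratio in the knockout, 2.66-fold, with 1.68-fold in wild type. Creld2 was at 2.32-fold in the knockout and 1.69-fold in wild type, Hspa5 at 1.86-fold in the knockout and 1.65-fold in wild type, and Canx was lowest at 1.32-fold in the knockout and 1.20-fold in wild type. The degradation genes had medians of 1.51-fold in the knockout and 1.32-fold in wild type, and the Atf4 targets 1.04-fold in the knockout and 1.02-fold in wild type. All tested features had medians of 1.06-fold in the knockout and 1.02-fold in wild type. The 8 genes whose promoter held the ER stress element shown above had a median within-genotype SD of 0.39 (range 0.209 to 0.655), and the 20 without it 0.222 (range 0.036 to 0.716). These ranges overlap, and Sdf2l1, with the largest SD, is among those without. Of the 8 genes with the element 7 are chaperones, and all 7 Atf4 targets are among those without, so element and role are not separated here.

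Genes of the same pathways outside the 32 were read from lists set by name. Of 30 other genes of ER folding, translocation and secretion, 25 log2 fold changes were negative and 5 positive (median -0.08), 0 were called by limma after adjustment, and 2 were lower at an unadjusted p under 0.05, beside 1.85% of all tested features. In 4 of the 30 every knockout library was below every wild-type library, beside 4.74% of all tested features. The 2 genes with an unadjusted p under 0.05 were Pdia5, a further disulfide isomerase, and Sec24d, a coat subunit of the vesicles that leave the ER. Pdia5 had 55.22, 51.22 and 53.21 TPM in the knockout libraries, against 68.03, 58.90 and 66.35 TPM in the wild-type libraries (log2 fold change -0.27, SE 0.083, unadjusted limma p 0.0117). Sec24d had 44.86, 40.12 and 40.20 TPM in the knockout libraries, against 47.00, 49.44 and 47.15 TPM in the wild-type libraries. Neither gene had overlapping groups, and the library numbered 1 stood out less than for the chaperones. Of 18 other degradation genes, 15 were negative and 3 positive with a median of -0.03, and 0 passed at an unadjusted p under 0.05 or after adjustment in limma.

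Of 19 other genes of stress sensing and regulation, 10 had a negative and 9 a positive log2 fold change, with a median of -0.01. None passed limma after adjustment, and 2 were higher at an unadjusted p under 0.05, beside 2.15% of all tested features. They encode subunits of eIF2B, the exchange factor that phosphorylated eIF2 inhibits, and were 2 of its 5 subunits in the list. Eif2b2 had 100.44, 83.53 and 82.82 TPM in the knockout libraries, against 56.42, 64.55 and 70.31 TPM in the wild-type libraries, a log2 fold change of 0.47 (SE 0.11, unadjusted limma p 0.0027). Eif2b4 had 42.92, 44.73 and 43.91 TPM in the knockout libraries, against 37.18, 32.89 and 37.14 TPM in the wild-type libraries, a log2 fold change of 0.29 (SE 0.083, unadjusted limma p 0.00818). The groups did not overlap for either gene, and the adjusted p was 0.989 for each in limma. The other subunits had log2 fold changes of -0.01 (SE 0.11) for Eif2b1, 0.03 (SE 0.11) for Eif2b3 and 0.01 (SE 0.080) for Eif2b5.

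Of 39 other integrated stress response targets, 13 had a negative and 26 a positive log2 fold change, with a median of 0.02, and 0 were called by limma after adjustment. Gars, the glycyl-tRNA synthetase, was the 1 gene with an unadjusted p under 0.05 (higher), beside 2.15% of all tested features. It had 55.10, 55.77 and 54.26 TPM in the knockout libraries, against 50.11, 46.53 and 43.71 TPM in the wild-type libraries, a log2 fold change of 0.23 (SE 0.079, unadjusted limma p 0.0189). The groups did not overlap for Gars, and the libraries numbered 1 did not set themselves apart.

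Most of the cytosolic and mitochondrial heat shock genes, which answer to another stress pathway, shared the library pattern of the ER chaperones. Of 16 such genes, 14 log2 fold changes were negative and 2 positive (median -0.06), and 0 passed limma after adjustment or at an unadjusted p under 0.05. Both libraries numbered 1 were the highest of their genotype for 13 of the 16 (81.2%), beside 24.4% of all tested features. Over the mean of the others, library 1 ranged from 1.02-fold (Hspa9) to 2.67-fold (Hsph1) in the knockout. In wild type it ranged from 0.92-fold (Bag3) to 2.02-fold (Hsph1). Hsph1, a nucleotide exchange factor of cytosolic Hsp70, had 100.37, 42.63 and 32.48 TPM in the knockout libraries, against 108.86, 74.40 and 33.64 TPM in the wild-type libraries. Hspa8, the constitutive Hsp70, had 1584.35, 1057.77 and 928.92 TPM in the knockout libraries, against 1761.43, 1343.37 and 878.55 TPM in the wild-type libraries. For both genes the libraries numbered 1 were highest and the groups overlapped. The mean deviation over the 16 genes was 0.25, -0.14 and -0.24 in the knockout libraries, against 0.32, 0.05 and -0.25 in the wild-type libraries, close to the chaperone order. The immediate early genes, which answer to handling among other stimuli, were at 0.25, 0.01 and -0.08 in the knockout libraries, against 0.01, 0.02 and -0.21 in the wild-type libraries, high in knockout library 1 but not in wild-type library 1.

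Marker lists of other cells gave the following values beside the chaperone pattern, and their part in it was not tested. Median log2 fold changes were 0.81 for neuron, -0.09 for supporting cell and 0.04 for otic fibroblast markers. They were -0.20 for tectorial membrane, -0.47 for red blood cell and 0.05 for macrophage markers. All 6 tested tectorial membrane markers were lower, 4 at an unadjusted limma p under 0.05, beside 1.85% of all tested features, and 0 after adjustment. Both libraries numbered 1 were the highest for 0 of these 6. No marker of these lists was at 0 in all 6 libraries. Melanocyte markers (3 of 6 past the filter, with Tyr, Tyrp1 and Mlana under it) summed to 53.3, 37.2 and 36.6 TPM in the knockout libraries, against 42.4, 38.1 and 28.4 TPM in the wild-type libraries. Their sum was highest in both libraries numbered 1 and lowest in wild-type library 3 among the wild-type libraries, as for the chaperone sum. By gene, both libraries numbered 1 were the highest for 1 of the 3 tested markers, and all 3 log2 fold changes were positive. The Schwann cell markers were highest in knockout library 1 among the knockout libraries for 10 of 10 and lowest in wild-type library 3 among the wild-type libraries for 10 of 10, but highest in wild-type library 1 for 3 of 10. Of all 17097 tested features, these held singly for 8886, 6560 and 6585. Osteoblast markers (9 of 10 past the filter), from a cell type with a large secretory load, summed to 280.5, 288.4 and 231.7 TPM in the knockout libraries, against 198.2, 254.6 and 96.3 TPM in the wild-type libraries, and the libraries numbered 1 were not the highest of either genotype. Chondrocyte markers (9 of 11 past the filter) summed to 8264, 7472 and 7799 TPM in the knockout libraries, against 7504, 8161 and 9860 TPM in the wild-type libraries, with wild-type library 3 the highest. Of 8 plasma and B cell markers, 3 passed the filter, and the sum over all 8 was 103.2, 59.0 and 48.9 TPM in the knockout libraries, against 82.7, 68.5 and 70.2 TPM in the wild-type libraries. High sums in both libraries numbered 1 came from Derl3, which is also a degradation gene and had 49.63, 12.56 and 10.24 TPM in the knockout libraries, against 38.75, 18.29 and 14.91 TPM in the wild-type libraries. Without Derl3 the sum was 53.6, 46.4 and 38.6 TPM in the knockout libraries, against 43.9, 50.2 and 55.3 TPM in the wild-type libraries. Knockout library 1 thus stayed the highest of its genotype, while wild-type library 1 was the lowest of its own. Levels of the defining plasma cell genes Jchain, Mzb1 and Igkc stayed between 0.01 and 1.91 TPM in all 6 libraries.

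**Figure D4:**
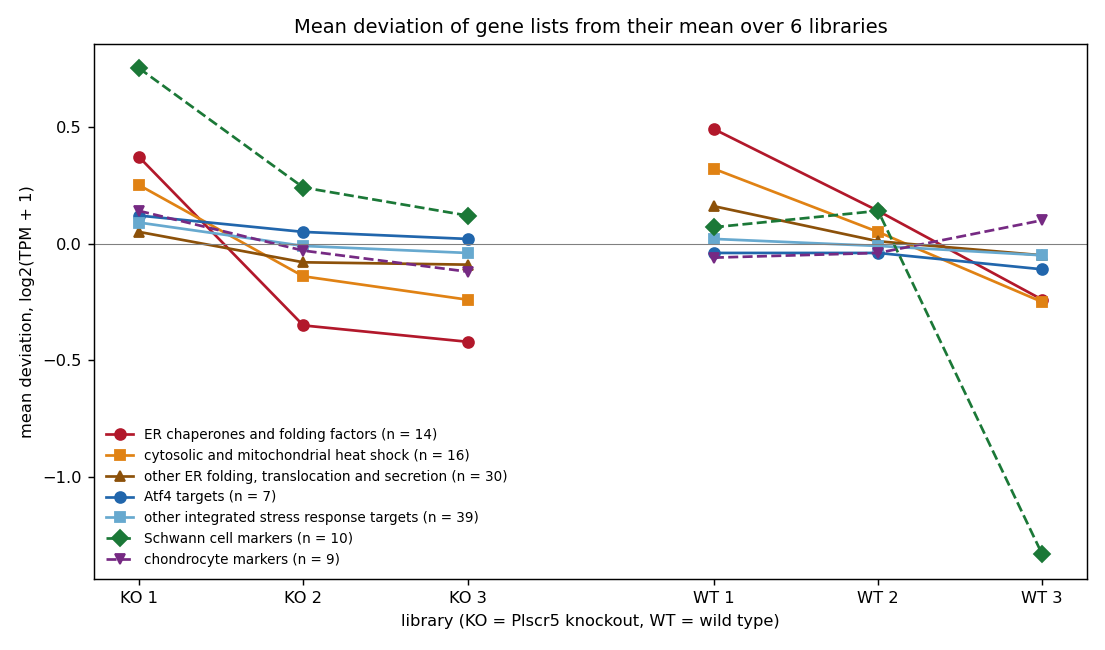
Mean deviation of each gene list from its 6-library mean, on the log2(TPM + 1) scale, with the 3 knockout libraries left of the 3 wild-type libraries; dashed lines are cell type markers, and lines carry no order. The ER chaperones reach 0.37 in knockout library 1 and 0.49 in wild-type library 1, heat shock genes 0.25 in knockout library 1 and 0.32 in wild-type library 1, and the Atf4 targets stay between -0.11 and 0.12.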

How the data were processed

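Total RNA of cochleae was sequenced in 6 libraries, with groups taken from the labels' genotype field. The deposited values are TPM, a unit read from the values: the authors wrote them with 2 decimals, and every library sums to between 999999 and 1000000. TPM keeps no read totals, so the depth is unknown and counting intervals cannot be computed. DESeq2 and mm8 are named, without a role, per the submitters' processing notes. Aligner, quantifier and gene annotation: not given in the sources used here. Feature rows hold IDs only. Symbols came from GENCODE M21 (GRCm38) and, for 3 of the listed symbols, RefSeq synonyms. Ddit3 matched more than 1 ID, and the one covering more of the RefSeq gene was used.

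A feature was tested if it reached 1 TPM in 3 or more libraries. The test was limma (version 3.58.1, R version 4.3.3, trend and robust moderation) on log2(TPM + 1), adjusted by Benjamini-Hochberg over all 17097 tested features with a threshold of 0.05. The steps were checked on simulated data. Promoters and motif searches used a RefSeq table of GRCm38.p6. The planned look at protein ends is not analysed here.

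The genes and lists were chosen with earlier results of these data known. Per-library values were planned for genes with an unadjusted p under 0.05 or no overlap, for the sensors and factors, and for the highest and lowest fold changes of the chaperones and Atf4 targets, and up to 4 genes of smallest p per further list could be named. Hspa5, Hsph1, Hspa8, Derl3, Jchain, Mzb1 and Igkc were added after their values were seen. The alternatives varied the pseudocount, the filter, the scaling, the moderation, a replicate term and the libraries used.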

Additional observations from a re-analysis of the deposited data

How the results depend on the processing

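No member was called under any of 18 alternatives, 2 of them chosen after seeing the data (leaving out both libraries numbered 1, or both numbered 3). Of 574 repeated member fold changes, 563 kept their direction and 11, in 5 members, changed sign. Leaving out 1 library, the log2 fold change ranged from -0.04 to 0.01 for Psat1, from -0.38 to 0.01 for Syvn1, from -0.53 to 0.06 for Dnajb9, from -0.37 to 0.02 for Herpud1 and from -0.01 to 0.07 for Phgdh. With both libraries numbered 1 left out it was 0.00 for Psat1 and -0.01 for Phgdh, and with both numbered 3 left out 0.00 for Psat1. Features called lower numbered 2, and 1 with a pseudocount of 5 TPM, with median-ratio scaling or with haemoglobin and mitochondrial genes removed, 0 with no filter, with no variance trend, with both libraries numbered 1 left out or with both numbered 3 left out, and 0 to 2 leaving out 1 library. Features called higher numbered 0, 1 with a pseudocount of 5 TPM, and 0 to 2 leaving out 1 library. The Atf4 target median, 0.13, was 0.08 with a pseudocount of 5 TPM, 0.02 with a filter of 5 TPM, which drops Trib3 and Chac1, 0.09 with both libraries numbered 3 left out, and 0.07 to 0.15 leaving out 1 library. The chaperone median was -0.31 with both libraries numbered 1 left out, where 8 members were lower at an unadjusted p under 0.05 beside 4.78% of all features in either direction, and -0.28 with both numbered 3 left out. The labels do not say whether the replicate numbers pair the libraries. Deviations from the genotype mean correlated at 0.19, -0.05 and 0.24 between same-numbered libraries. The libraries numbered 1 and 3 correlated best with their own number, and those numbered 2 did not. With a replicate block 0 features were called lower, and the smallest adjusted p of a member in limma was 0.663. In that fit 12 members were lower at an unadjusted p under 0.05. Of all 17097 tested features, 571 were lower and 679 higher at that threshold, together 7.31%. Causes of these shifts, other than the dropped genes, were not tested. TPM keeps no depth, so the precision of low genes such as Chac1 and Trib3 cannot be given.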
